A study of Mus musculus with 10 samples.

Results

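Transcripts of 10 genes of the contractile apparatus of the mammary myoepithelial cell were followed in lactating glands 12 h after injection of bacterial endotoxin. The genes were Acta2, Tagln, Tpm2, Myl9, Mylk, Myh11, Cnn1, Lmod1, Des and Oxtr. They were chosen by name, by matching the Ensembl identifiers of the deposited expression table to gene symbols, and all 10 were found among the 35275 genes of that table. The animals were BALB/c mice, an inbred strain, on lactation day 3. Lipopolysaccharide (LPS, 50 µL at 0.4 mg/mL, from E. coli 055:B5) was given through the teat canal to 1 gland of the 4th pair and PBS, the buffer without LPS, to the other, with the sides alternated between animals. RNA was taken from whole glands, 5 LPS and 5 PBS. The labels give n = 9 but do not tie the libraries to animals, and the number shared by an LPS and a PBS library is not said to mark 1 mouse. The p-values below therefore measure the spread between these glands. The main fit takes the 10 glands as independent, although the design allows an LPS and a PBS gland to come from 1 mouse. Uninjected glands were not analysed here, and PBS went into animals that also received LPS.

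Myoepithelial cells form a basal layer around the milk-producing alveoli and along the ducts. Oxytocin released during suckling binds its receptor on these cells, calcium rises, calmodulin activates myosin light chain kinase, and phosphorylated myosin pulls on actin filaments so that milk is driven toward the teat. The genes studied here are not confined to these cells, since smooth muscle of vessels and of the teat also makes most of the same proteins, and an RNA level of a whole gland cannot tell fewer myoepithelial cells from less RNA per cell.

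In the contractile genes, no difference between LPS and PBS glands passed the test across all genes, in a fit that does not pair the glands. With libraries of the same number as blocks, Tagln and Tpm2 passed it (limma adjusted p = 0.0183 and 0.0230), as did 1229 genes over all. The largest mean differences were those of Tagln, Acta2, Tpm2 and Myl9, all toward LPS glands. Values are FPKM, the fragments counted per kilobase of gene, scaled by the counted reads of the library. Levels can be compared between genes as far as the gene lengths behind the FPKM hold. Tests were made with limma on log2(FPKM + 1). A call means an adjusted p (Benjamini-Hochberg, over the 11414 genes tested) below 0.05. All 10 genes passed the filter on low values and 0 of 10 were called, against 3.23% of all tested genes (300 higher in LPS glands, 2.63%, and 69 lower, 0.605%). Before adjustment 4 of the 10 had a p below 0.05, Tagln, Tpm2, Acta2 and Myl9, all higher in LPS glands, where 12.4% of all tested genes did so. In the count-based test of edgeR, run on whole reads recovered from the FPKM, 0 of 10 were called (3.83% of all genes). In that of DESeq2, 1 of 10 was called, Tagln (7.39% of all genes). The mean change was above 0 for 9 of 10 genes and for 61.4% of all tested genes, with a median log2 change of 0.17 for the contractile genes and 0.05 over all tested genes.

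The upstream sequences of 4 genes are shown because genes of this kind are textbook targets of serum response factor, which binds CArG boxes: Myl9 holds a CArG box and Acta2 only CArG-like sites near the start, whereas Oxtr, the receptor, and Tpm2, the gene with the clearest separation between groups, hold neither. Each line gives the 250 bases before the start of the gene in the RefSeq table of build GRCm38.p6, 5′ to 3′ on the strand of the gene, and capitals mark a CArG box or a CArG-like site, which differs from the box by 1 G or C among its 6 inner bases. The gene boundary in the GENCODE M21 annotation lies inside each of these windows, so alternative starts are annotated there.
Acta2, chr19:34255374-34255623, minus strand: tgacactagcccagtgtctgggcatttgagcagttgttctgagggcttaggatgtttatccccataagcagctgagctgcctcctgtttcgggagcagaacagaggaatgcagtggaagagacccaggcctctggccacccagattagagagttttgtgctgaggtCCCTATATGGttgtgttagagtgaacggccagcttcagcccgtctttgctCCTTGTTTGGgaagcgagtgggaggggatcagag
Myl9, chr2:156775214-156775463, plus strand: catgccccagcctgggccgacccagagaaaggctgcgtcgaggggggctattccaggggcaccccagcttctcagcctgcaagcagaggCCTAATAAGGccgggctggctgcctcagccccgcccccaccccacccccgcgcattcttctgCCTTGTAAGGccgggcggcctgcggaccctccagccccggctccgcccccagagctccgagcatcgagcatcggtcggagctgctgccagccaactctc
Oxtr, chr6:112489826-112490075, minus strand: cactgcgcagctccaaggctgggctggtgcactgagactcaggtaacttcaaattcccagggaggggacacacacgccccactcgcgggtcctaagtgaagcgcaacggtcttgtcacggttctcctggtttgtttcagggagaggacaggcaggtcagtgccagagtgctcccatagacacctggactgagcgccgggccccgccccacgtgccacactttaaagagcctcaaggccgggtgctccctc
Tpm2, chr4:43523555-43523804, minus strand: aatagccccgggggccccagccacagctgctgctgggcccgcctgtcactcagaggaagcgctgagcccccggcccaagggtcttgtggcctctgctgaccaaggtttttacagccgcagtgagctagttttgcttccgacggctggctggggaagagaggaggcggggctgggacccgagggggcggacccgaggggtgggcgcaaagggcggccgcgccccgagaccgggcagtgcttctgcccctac

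Windows of 300 bases, from 250 before to 50 after the start, were present for 8 of the 10 genes, and Myh11 and Tagln were not matched. In Acta2 the CArG-like letters CCCTATATGG began 84 bases and CCTTGTTTGG 34 bases before the start. In this window the letters of a TATA box, tatataa, stand after that start. Distances here are to the annotated start only, and where transcription begins was not examined. Myl9 held the CArG box CCTAATAAGG from 161 bases before its start and the CArG-like CCTTGTAAGG from 99 bases before it. A CArG box stood in 1.57% and a box or a CArG-like site in 10% of 27025 windows of the same length, and in 2 of the 8 windows of the contractile genes. The letters CATTCC, the MCAT element bound by TEAD factors, were searched on both strands. They stood in 3 of the 8 windows (Acta2, Mylk and Lmod1) and in 14.6% of all windows. In the windows of the contractile genes these letters did not overlap a CArG or CArG-like site. The Mylk window, 34784700 to 34784999, lies inside the gene as positioned below (from 34745210), so its match is not at that start. A match is a match of letters only, and binding was not measured.

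Depth was 15734303 to 18869545 counted reads per library. The 10 genes together took 17342 to 30673 reads per library. Their share of summed FPKM, a quantity per gene length, was 0.0686 to 0.118%. Milk protein transcripts took 39.8 to 50.9% of summed FPKM in PBS glands and 32.4 to 44.6% in LPS glands, and 4 of the 5 LPS glands were below every PBS gland in this share, against which every other FPKM is read. Markers of neutrophils, which enter a gland exposed to endotoxin, had 5 of 7 tested genes called higher in LPS glands (2.63% over all tested genes), with a median log2 change of 1.33. The basal keratins Krt5, Krt14 and Krt17 were present in all glands, with Krt14 at 18.04 ± 1.68 FPKM in PBS glands, while Trp63 was at 0.942 ± 0.165 FPKM and did not pass the filter.

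**Figure D1:**
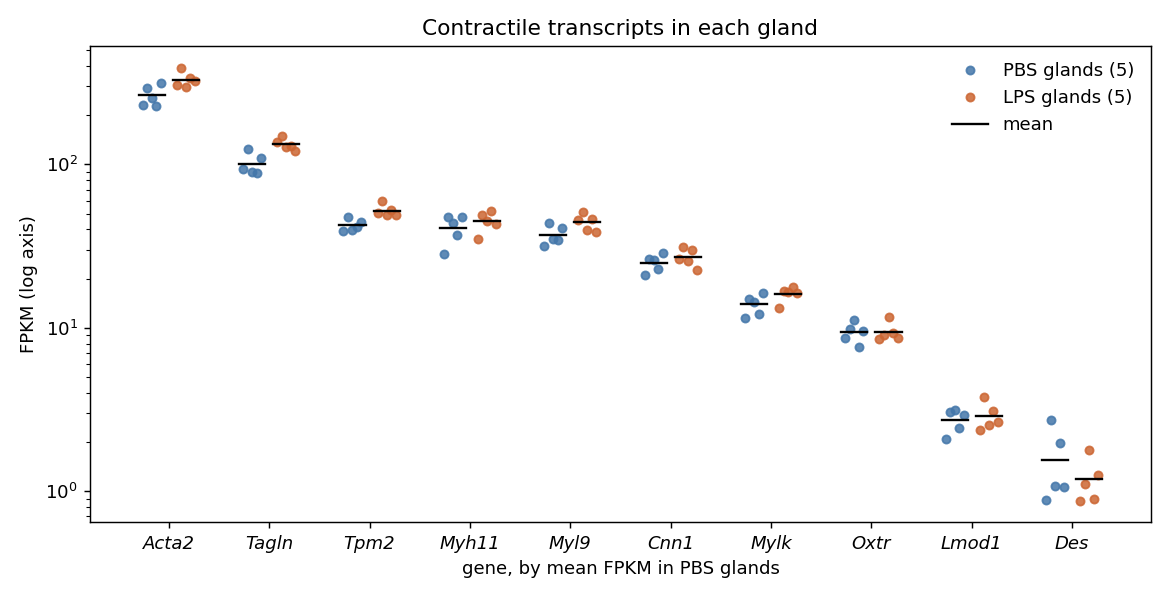
FPKM of the 10 contractile genes on a log axis, ordered by mean level in PBS glands; each point is 1 gland (5 PBS, 5 LPS) and each bar a group mean. The groups overlap for every gene except Tpm2, and levels run from a PBS mean of 264 FPKM for Acta2 to 1.54 FPKM for Des.

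Acta2 encodes smooth muscle alpha-actin, the main thin filament protein of the myoepithelial cell. Its GRCm38 position is chromosome 19, 34241090 to 34255590, minus strand, with 10 exons when the transcripts are merged. The PBS glands 1 to 5 held 230.0, 292, 256, 227 and 315 FPKM. The LPS glands 1 to 5 held 306, 391, 296, 335 and 321 FPKM. In all 5 LPS glands the level was above the PBS median, and in 3 of them above every PBS gland. The means were 264 ± 38.7 and 329.96 ± 37.2 FPKM (SD, n = 5 each), a log2 change of 0.32 ± 0.12 (SE) with a 95% interval from 0.07 to 0.58 and a limma adjusted p of 0.172. Of the 50-base stretches of its transcripts, 0.326% also occur, letter for letter, in other genes, among them Actg1. How many reads could be confused with another actin was not examined.

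Tagln encodes transgelin (SM22), an actin-binding protein of the calponin family, on chromosome 9 from 45929619 to 45936058, minus strand. Its PBS glands 1 to 5 stood at 93.8, 124, 89.8, 88.8 and 109 FPKM. Its LPS glands 1 to 5 stood at 138, 149.9, 128, 129 and 120.4 FPKM. In 4 of 5 LPS glands Tagln was above every PBS gland, and LPS gland 5 was below PBS gland 2 alone. The log2 change of 0.40 ± 0.11 (95% interval 0.17 to 0.63) was the largest of the 10 and had a limma adjusted p of 0.0649. DESeq2 on the recovered reads gave Tagln an adjusted p of 0.0374, and the authors' deposited table lists it with a log2 fold change of 0.32 and an adjusted p of 0.0415. That table holds 7.06% of the genes tested here (4.82% as higher). Without PBS gland 2 the limma adjusted p of Tagln was 0.0263, past the threshold. On the opposite strand Tagln overlaps the antisense gene Gm48529 over 1241 exonic bases and Pcsk7 over 108. Since the strand of the counted reads is not stated, reads of these genes and of Tagln cannot be told apart where they overlap. Pcsk7 was at 12.4 to 19.5 FPKM, and Gm48529 was not found by name among the deposited genes.

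Tpm2 encodes beta-tropomyosin, which winds along the actin filament, on chromosome 4 from 43514711 to 43523765, minus strand. In PBS glands 1 to 5 it was at 39.1, 47.3, 39.6, 41.1 and 44.4 FPKM. In LPS glands 1 to 5 it was at 50.2, 59.8, 48.8, 52.3 and 49.2 FPKM. The lowest LPS gland was above the highest PBS gland, which made Tpm2 the one gene of the 10 without overlap, where 3.53% of all tested genes had LPS higher without overlap. Its means were 42.3 ± 3.50 and 52.1 ± 4.53 FPKM, a log2 change of 0.29 ± 0.09 (95% interval 0.11 to 0.48). The limma adjusted p was 0.0913.

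The motor that acts on these filaments is smooth muscle myosin. Myl9, its regulatory light chain and the substrate of the kinase, lies on chromosome 2 from 156775420 to 156781658, plus strand. PBS glands 1 to 5 held 31.8, 43.98, 34.9, 34.5 and 40.5 FPKM of Myl9. LPS glands 1 to 5 held 45.5, 51.4, 39.8, 45.99 and 38.8 FPKM. All LPS glands were above the PBS median, and 2 of them lay within the PBS range. The log2 change of Myl9 was 0.25 (95% interval 0.01 to 0.49) with an adjusted p of 0.268.

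Mylk, the myosin light chain kinase (chromosome 16, 34745210 to 35002420, plus strand), ranged from 11.5 to 16.2 FPKM in PBS glands and from 13.2 to 17.7 in LPS glands. Of the LPS glands 4 were above every PBS gland, and LPS gland 1 lay below the PBS median. Its log2 change was 0.21 (95% interval -0.03 to 0.45, adjusted p = 0.388). Antisense genes overlap its exons, and their reads cannot be told apart from those of Mylk there. These genes, E130310I04Rik and Gm21691, were not found by name among the deposited genes.

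Myh11, the smooth muscle myosin heavy chain (chromosome 16, 14194535 to 14291372, minus strand), varied more between glands. PBS glands 1 to 5 held 28.3, 47.8, 43.7, 37.1 and 47.7 FPKM. LPS glands 1 to 5 held 34.9, 48.9, 45.1, 51.7 and 43.1 FPKM. Gland 1 was the lowest of both groups, and the groups overlapped over most of their range. The log2 change was 0.14 with a 95% interval from -0.18 to 0.46 (adjusted p = 0.725). As a fold this interval runs from 0.88 to 1.38 times the PBS level.

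Calponin 1 (Cnn1, chromosome 9, 22099216 to 22109630, plus strand) restrains myosin on the actin filament. It ranged from 20.9 to 28.7 FPKM in PBS glands and from 22.6 to 31.3 FPKM in LPS glands. The log2 change of Cnn1 was 0.11 (95% interval -0.13 to 0.35, adjusted p = 0.693). Leiomodin 1 (Lmod1, chromosome 1, 135324807 to 135368065, plus strand), which starts new actin filaments in smooth muscle, ranged from 2.09 to 3.13 FPKM in PBS glands and from 2.38 to 3.76 in LPS glands. The log2 change of Lmod1 was 0.05 (95% interval -0.22 to 0.32, adjusted p = 0.897). The ranges of the groups overlapped for both genes.

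Oxtr, the oxytocin receptor that starts the contraction (chromosome 6, 112473683 to 112489943, minus strand), was level between the groups to within the spread of the glands. PBS glands 1 to 5 held 8.62, 9.89, 11.2, 7.65 and 9.49 FPKM. LPS glands 1 to 5 held 8.56, 9.03, 11.6, 9.30 and 8.60 FPKM. The PBS range contained every LPS gland except gland 3, which stood above it. The log2 change of Oxtr was 0.01 ± 0.11, and its 95% interval from -0.24 to 0.25 runs from 0.85 to 1.19 times the PBS level. Its adjusted p was 0.985. The receptor was counted from 275 to 458 reads per library.

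**Figure D2:**
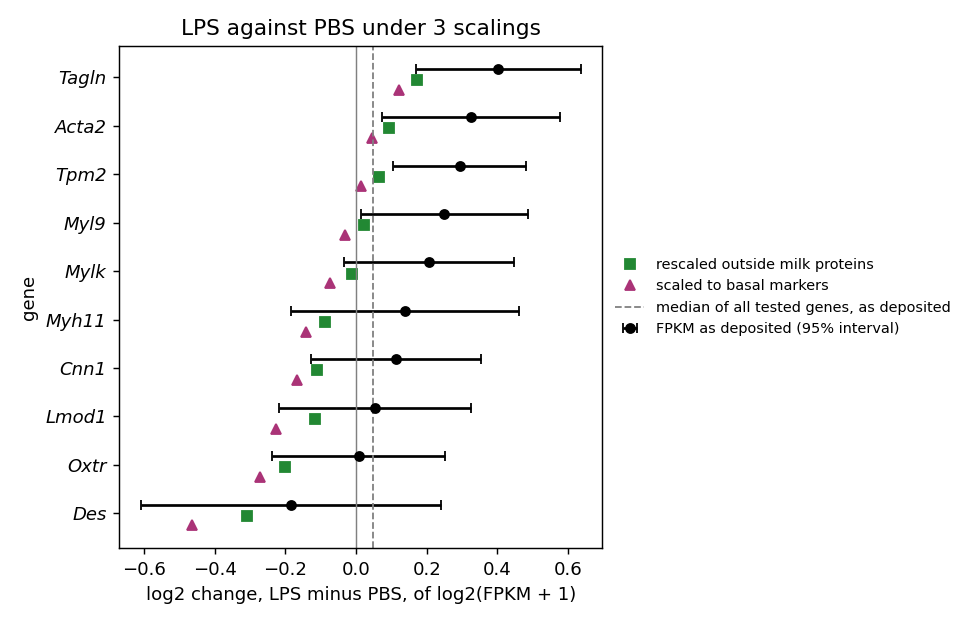
Log2 change (LPS minus PBS, log2(FPKM + 1)) of each contractile gene; black points with bars are FPKM as deposited with 95% intervals, squares are FPKM rescaled to the sum outside milk protein genes, triangles are values set against basal cell markers, and the dashed line is the median of all tested genes as deposited. Tagln, at 0.40, has the highest change and Des, at -0.18, the lowest, and both rescalings, which move all genes of a library nearly alike, shift the values down.

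The order of levels in PBS glands was Acta2 at 264, Tagln at 101.1, Tpm2 at 42.3, Myh11 at 40.9, Myl9 at 37.2, Cnn1 at 24.96, Mylk at 13.9, Oxtr at 9.37, Lmod1 at 2.73 and Des at 1.54 FPKM on average. The PBS ranges of Tpm2, Myh11 and Myl9 overlapped, as did those of Lmod1 and Des, whereas all other neighbours in the order were apart. The Acta2 level was 2.22 to 2.89 times that of Tagln in each of the 10 glands. The receptor stood at a few percent of the actin level in every gland, with an Oxtr to Acta2 ratio of 0.0231 to 0.0437. Order and ratios rest on the gene lengths behind the FPKM. For Oxtr that length was 2284 bases, against 4790 bases of merged exons in GENCODE M21. For Acta2 it was 1781 against 2196 bases.

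How FPKM were scaled decided whether the middle of the list lay above or below 0. When FPKM were rescaled to the sum outside milk proteins, the median over all tested genes moved to -0.15, and 4 of the 10 contractile genes were above 0. In another scaling each library was set against its mean of the basal markers Krt5, Krt14, Krt17, Mme, Cdh3, Itga6 and Itgb4. The median then moved to -0.23 and 3 of 10 contractile genes were above 0: Tagln, Acta2 and Tpm2. Their sizes shrank: the log2 change of Tagln was 0.17 outside milk proteins and 0.12 against basal markers. That of Acta2 was 0.093 and 0.045, and that of Tpm2 0.065 and 0.014. Krt5 and Krt14 were themselves higher in LPS glands as deposited (log2 change 0.59 and 0.43). Of the 21 tested genes of the wider basal list, 17 had changes above 0, where 61.4% of all tested genes did. The markers used for the scaling all had changes above 0 as deposited, and setting libraries level in them shifts other genes down. Calls over all genes changed sides as well, with 133 higher and 495 lower outside milk proteins and 110 higher and 596 lower against basal markers. The splits were 254 and 115 with median-of-ratios scaling, 233 and 145 with quantile normalization, 305 and 132 in edgeR, and 544 and 299 in DESeq2. Read against the median of all tested genes, 8 of the 10 were above it with the deposited FPKM, all except Oxtr and Des. A scaling by 1 factor per library moves all genes of the library nearly alike, so this position hardly depends on it by construction. None of the 4 scalings of FPKM called a contractile gene.

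Ratios between genes of 1 gland do not depend on the scaling of the library, and 12 of them were computed, chosen after gene values had been seen. Oxtr per Krt14, a keratin of basal cells, was 0.497, 0.473, 0.629, 0.464 and 0.539 in PBS glands 1 to 5. In LPS glands 1 to 5 this ratio was 0.442, 0.304, 0.453, 0.386 and 0.345. Every LPS gland was below every PBS gland. The log2 difference was -0.44. In FPKM as deposited Oxtr was nearly level, but it was at -0.20 outside milk proteins and at -0.27 with basal marker scaling. How the ratio divides between Oxtr and Krt14 therefore depends on the scaling. Being chosen with those values known, the ratio is a description without a test. Krt14 itself had a log2 change of 0.43 with a limma adjusted p of 0.0568, and the authors' deposited table lists Krt14 with a log2 fold change of 0.37 and an adjusted p of 0.0129.

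Cnn1 per Acta2 was 0.0948 ± 0.00558 in PBS glands and 0.0822 ± 0.00741 in LPS glands (SD, n = 5 each), again without overlap. Its log2 difference was -0.21, also given without a test. Leaving out each gland in turn gave differences from -0.50 to -0.35 for Oxtr per Krt14 and from -0.24 to -0.15 for Cnn1 per Acta2. Since the groups did not overlap in these ratios, no omission could turn the sign, so only the size was examined. In the other 10 ratios the groups overlapped. The log2 difference was -0.42 for Acta2 per Actg2, a second smooth muscle actin, -0.32 for Oxtr per Acta2, -0.30 for Myh11 per Krt14 and -0.12 for Acta2 per Krt14. Acta2 per Actb, a cytoplasmic actin, differed by 0.02.

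Within each group, most contractile transcripts went up and down together from gland to gland, with Oxtr and Des apart. After the group means were subtracted, 42 of the 45 pairs of genes had a Pearson r above 0 over the 10 libraries, with a median of 0.61. Myh11 and Mylk had an r of 0.94 and Tpm2 and Myl9 one of 0.93. Among the 8 genes other than Oxtr and Des, a set chosen after the values were seen, r was above 0 for 28 of 28 pairs, from 0.39 to 0.94. Without PBS glands 1 and 2, the lowest and highest glands, it was above 0 for the same number of pairs, with a median of 0.75 and a lowest r of 0.27. Oxtr had a median r of 0.17 and Des one of 0.19 with the other genes. These correlations describe 10 libraries that share composition and scaling and carry no test.

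**Figure D3:**
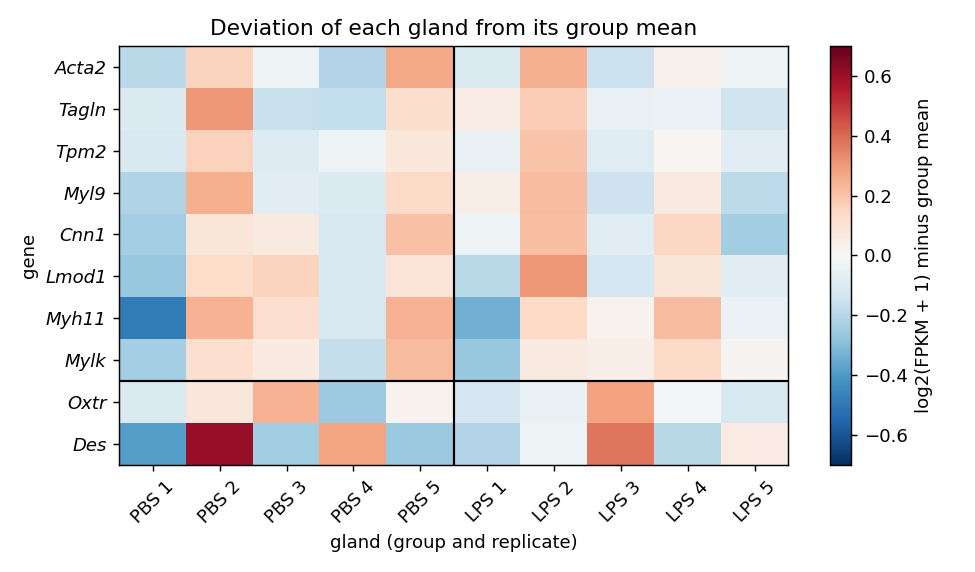
Log2(FPKM + 1) of each contractile gene (rows) in each gland (columns) minus the mean of its group; red is above and blue below that mean, the vertical line parts PBS from LPS glands and the horizontal line sets off Oxtr and Des. PBS gland 2 and LPS gland 2 are above their group means for the upper 8 rows, and PBS gland 1 is below it, whereas Oxtr is highest in glands numbered 3 and Des in PBS gland 2.

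The shared course was also compared with other genes, by the correlation of each gene with the mean centred profile of the 10 contractile genes. Of 7133 other genes with a mean of at least 5 FPKM, the 10 closest were Ranbp10 (r = 0.98), Aifm1 (0.98), Hnrnpa1 (0.96), Tpcn1, Ap2a1, Vars, Fdps, Ubr2, Atxn7l3 and Lamb1 (0.91), over 10 libraries. Aifm1 encodes a mitochondrial flavoprotein, Hnrnpa1 an RNA-binding protein of splicing, Vars the valyl-tRNA synthetase, Fdps an enzyme of isoprenoid synthesis, and Lamb1 a laminin chain of basement membrane. None of these 10 was called between LPS and PBS glands by limma, and 2 of them had changes above 0.4 on the log2 scale, Fdps with 0.53 (adjusted p = 0.246) and Hnrnpa1 with 0.47 (adjusted p = 0.098).

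Des, desmin, an intermediate filament protein of muscle (chromosome 1, 75360329 to 75368579, plus strand), did not follow the other contractile genes. PBS glands 1 to 5 held 0.877, 2.74, 1.07, 1.97 and 1.05 FPKM. LPS glands 1 to 5 held 0.875, 1.11, 1.79, 0.890 and 1.25 FPKM. PBS glands 2 and 4 and LPS gland 3 were high, and the other 7 glands lay between 0.875 and 1.25 FPKM. The log2 change was -0.18 (95% interval -0.61 to 0.24, adjusted p = 0.720), from 43 to 140 reads per library. The antisense gene Gm15179, which overlaps Des over 220 exonic bases, was at most at 0.0883 FPKM.

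The same 3 glands held the most B and T cell transcripts. The summed FPKM of 12 B and T cell markers was 69.6 in PBS gland 2, 31.96 in PBS gland 4 and 23.8 in LPS gland 3, and at most 7.80 in the other 7 glands. The ranks of Des and of this sum were the same for these 3 glands, while among the other 7 the gland with the most Des, LPS gland 5, had the least B and T cell transcript. Without the 3 glands the log2 change of Des was 0.02 (adjusted p = 0.971), and with the B and T cell level as a covariate it was -0.02 (adjusted p = 0.941). The 3 glands left out were also the 3 highest in Des, so leaving them out removes the high Des values by construction. The covariate, added after values were seen, follows Des closely (Pearson r = 0.91 over the 10 libraries, group means subtracted). Neither value can therefore decide what sets the level of Des. The part of these cells, or of tissue that came with them, in the level of Des was not tested. For the other 9 genes the glands highest in B and T cell transcripts were not the highest as a set: Acta2, for example, was at 227 FPKM in PBS gland 4, the lowest of all 10.

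**Figure D4:**
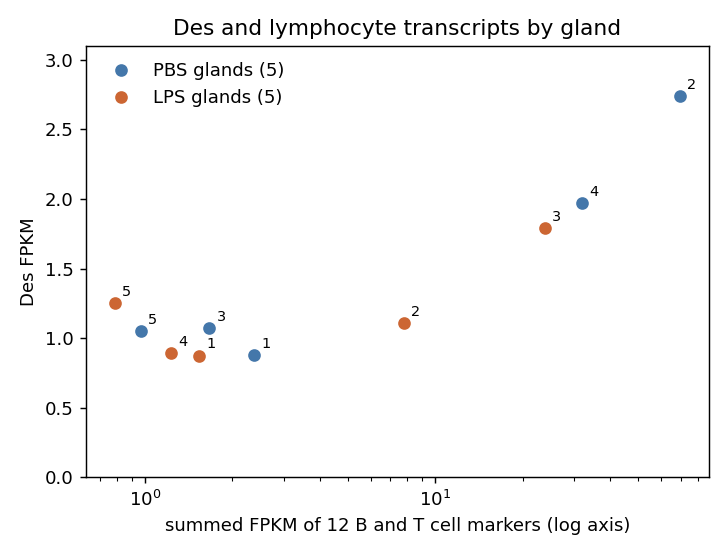
Des FPKM (vertical axis) against the summed FPKM of 12 B and T cell markers (horizontal log axis), each point 1 gland with its replicate number beside it. PBS glands 2 and 4 and LPS gland 3 stand apart at 1.79 to 2.74 FPKM of Des and 23.8 to 69.6 FPKM of the markers.

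Further genes of the contractile apparatus, 33 in the list and 30 tested, had 2 called higher and 0 called lower, with a median log2 change of 0.13. Of all tested genes 2.63% were called higher. At an unadjusted p below 0.05, 10 of the 30 were higher and 2 lower in LPS glands, where 12.4% of all tested genes were higher. Csrp1, a LIM protein bound to the actin cytoskeleton, rose from 84.6 ± 10.4 FPKM in PBS to 124 ± 13.6 in LPS glands (log2 difference 0.55 ± 0.10, limma adjusted p = 0.0158). Cnn3, the acidic calponin that many cell types make, rose from 49.3 ± 6.36 FPKM in PBS to 72.2 ± 12.2 in LPS glands (log2 difference 0.53, adjusted p = 0.0445). Both are in the authors' deposited table as higher, as is Tes, a LIM protein of focal adhesions, with a log2 fold change of 0.27 and an adjusted p of 0.0388. In the limma fit Tes had a log2 change of 0.32 and an adjusted p of 0.0652. The authors' deposited table also lists Smtn, the smooth muscle protein smoothelin, as lower with a log2 fold change of -0.45 and an adjusted p of 0.00651. In the limma fit Smtn was at 6.50 ± 0.993 FPKM in PBS and 4.81 ± 0.706 FPKM in LPS glands (log2 change -0.37, adjusted p = 0.130) and both Tes and Smtn were named after their values were seen.

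Among close relatives of the 10 genes, Actg2, the gamma actin of smooth muscle, was at 9.97 ± 3.81 FPKM in PBS and 15.9 ± 2.37 in LPS glands (log2 change 0.68, 95% interval from 0.24, adjusted p = 0.0954). Actg1, a cytoplasmic actin made by nearly all cells, was at 371.5 ± 40.7 and 510.2 ± 76.5 FPKM, without overlap between the groups. Of all tested genes 3.53% had LPS higher without overlap, and Actg1 was not called (log2 change 0.45, limma adjusted p = 0.0686). Apart from Cnn3, given above, log2 changes of the other tested relatives were 0.46 for Tpm4, 0.41 for Tagln2 and 0.35 for Tpm3. They were 0.32 for Myl12b, 0.30 for Actb and Myl6, 0.25 for Myl12a and 0.20 for Tpm1. Myh9 and Vim were at 0.19, Cnn2 at 0.09 and Myh10 at -0.08. None of these was called. The actins of skeletal and heart muscle, Acta1 and Actc1, had PBS means of 0.159 and 0.0735 FPKM. The vasopressin receptors related to Oxtr, Avpr1a and Avpr2, had PBS means of 0.174 and 0.0346 FPKM, and Oxtr, at 9.37 FPKM, was the highest of these receptors.

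Of the signalling steps between the oxytocin receptor and the filament, 23 of 30 listed genes were tested. Of these 0 were called (3.23% over all tested genes), and the median log2 change was 0.07. At an unadjusted p below 0.05, 4 of the 23 were higher and 0 lower in LPS glands, where 12.4% of all tested genes were higher. The most abundant were Calm2, a calmodulin gene, at 121.6 ± 12.6 FPKM in PBS and 147 ± 8.84 in LPS glands (log2 change 0.28, adjusted p = 0.128), and Rhoa, the GTPase that sustains myosin phosphorylation, at 109 ± 5.54 and 118 ± 4.20 FPKM (log2 change 0.12, adjusted p = 0.479).

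Factors that control contractile genes, 25 listed and 23 tested, had 0 called (3.23% over all tested genes) and a median log2 change of 0.03. At an unadjusted p below 0.05 there was 1 higher and 0 lower, where 12.4% of all tested genes were higher. The 1 gene, Tgfb2 (limma adjusted p = 0.0691), was named after its values were seen. The authors' deposited table lists Tgfb2 with a log2 fold change of 0.45 and an adjusted p of 0.0343. Tgfbr2, a receptor of transforming growth factor beta, was the most abundant of the list at 48.0 ± 5.31 FPKM in PBS and 41.9 ± 4.07 in LPS glands (adjusted p = 0.373). Tgfb3, one of its ligands, was at 34.0 ± 3.92 and 38.9 ± 14.8 FPKM (adjusted p = 0.883), with LPS glands spread from 19.9 to 54.7. Myocd, the smooth muscle partner of serum response factor, averaged 0.0116 FPKM in PBS glands and did not pass the filter.

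Markers of the cells that could carry the contractile transcripts moved as follows. Of the basal epithelial list 21 of 28 genes were tested, 1 was called higher and 0 lower, with a median log2 change of 0.19. The called gene was Krt5, a basal keratin, which rose from 12.8 ± 1.77 FPKM in PBS to 19.8 ± 2.33 in LPS glands (log2 difference 0.59, adjusted p = 0.0163). The authors' deposited table holds Krt5 and Krt14 as higher and Lama1, a laminin chain, as lower (log2 fold change -0.41, adjusted p = 0.0400). In the limma fit Lama1, named after its values were seen, had a log2 change of -0.27 (adjusted p = 0.374). The summed FPKM of the basal list was 366 to 492 in PBS and 383 to 548 in LPS glands. Of the list for vascular smooth muscle and pericytes 13 of 22 were tested, 0 were called higher and 1 lower, with a median of -0.10. At an unadjusted p below 0.05, 0 of the 13 were higher and 2 lower, where 465 of all 11414 tested genes were lower. Cox4i2, a respiratory chain subunit found in pericytes, fell from 1.44 ± 0.356 FPKM in PBS to 0.654 ± 0.10 in LPS glands (log2 difference -0.55, adjusted p = 0.0320). The summed FPKM of that list was 41.8 to 58.4 in PBS and 40.1 to 51.6 in LPS glands, and 7 of its genes were below 1 FPKM in all glands.

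Skeletal muscle markers summed to 6.23 to 11.1 FPKM in PBS and 5.24 to 12.5 in LPS glands. Of the 27 genes 20 were below 1 FPKM in all glands, 3 were at 0 in all, and 4 were tested with 0 called (3.23% over all tested genes). The most abundant of those tested, Mylpf, a light chain of fast muscle, was at 1.40 ± 0.585 and 1.65 ± 0.956 FPKM, and Eno3, the muscle enolase, at 1.54 ± 0.703 and 0.886 ± 0.363 FPKM. The part of these other cells in the contractile levels was not tested.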

How the data were processed

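RNA from mouse mammary glands was sequenced in 10 libraries, 5 LPS and 5 PBS. The submitters' processing notes name genome build mm10 and the tools HTSeq 0.6.1, STAR 2.5 and DESeq2 (version given as 2), and the annotation release and strand setting are not given in the sources used here. Expression of every gene was deposited as FPKM made by the authors. For 908 genes the authors also deposited raw counts, normalized values (a signal: counts divided by a size factor), log2 fold changes and adjusted p-values, per the file headers. The 10 genes, the gene lists and the rules for naming genes were chosen with earlier results of these data known.

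Here the 11414 genes that reached 1 FPKM in 5 or more libraries were tested with limma 3.58.1 in R 4.3.3 (intensity trend, two-sided, group as the one term) on log2(FPKM + 1), with Benjamini-Hochberg adjustment over all of them. Fold changes on this scale understate changes of low genes. Raw counts were deposited for listed genes only, so the plan's FPKM test stayed the one reported. Whole reads were recovered for 23059 of 23059 genes above 0 (100.0%, tolerance 0.002 reads) and equalled the deposited counts for 907 of 908 listed genes. On these reads DESeq2 1.42.0 and the quasi-likelihood test of edgeR 4.0.16 were alternatives, which called 843 and 437 genes. Depth bounds counting error only, since PCR copies cannot be told from molecules. Ratios between genes are given without a test. Gene positions are from GENCODE M21, whose boundaries equalled those of 585 of 905 listed genes found in it, so the authors' gene models differ in part.

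Named genes were the 10 contractile genes, up to 4 called genes of largest change in each list or the 2 of highest mean FPKM where none was called, the 10 genes of closest profile, and close relatives. Alternatives were the pseudocount (0.1 and 5), the filter, 4 scalings, a replicate block, variance options and each library left out. B and T cell variants and all ratios were added after values were seen. The fit was tested on simulated data.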

Additional observations from a re-analysis of the deposited data

Results flagged for a closer look

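The oxytocin receptor transcript in LPS glands had its highest value, 11.6 FPKM, in gland 3, farther from the other 4 than is usual for a group of this size by Dixon's test. Both groups of each contractile gene were examined, 20 in all, and chance alone marks about 1 in 20, so this 1 mark carries little weight. In PBS glands the highest Oxtr value, 11.2 FPKM, was also in gland 3.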

How the results depend on the processing

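Tagln and Tpm2, at the edge of the threshold, were the contractile genes whose call depended on the processing, and Acta2, Tagln and Tpm2 kept their direction under every alternative run, though not their size: at the lowest, with basal marker scaling, they were at 0.045, 0.12 and 0.014. With library weights 2 of the 10 were called (656 genes over all), with DESeq2 1 (843), and with the B and T cell level as a covariate 1 (737). Leaving out each library called 0 to 1 of the 10 and 150 to 517 of all genes. The lower counts over all genes came without PBS replicates 1, 4 and 5 (160, 150 and 226) and LPS replicates 2 and 3 (150 and 202), and the 1 contractile gene was Tagln without PBS replicate 2. Over all genes 126 were called with no filter (more genes tested), 628 with scaling outside milk proteins, 706 with basal marker scaling and 35 without the 3 libraries rich in B and T cell transcripts (fewer samples).

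The replicate block called 2 of the 10, Tagln (adjusted p = 0.0183) and Tpm2 (adjusted p = 0.0230), and 1229 genes over all. Libraries of the same number correlated at 0.48, 0.36, 0.099, 0.10 and 0.49 for numbers 1 to 5 in their deviations from the group means, and 3 of 5 LPS libraries correlated best with their own number. Since not every pair was above 0.1 and the labels give no shared animal, the pairing was not used in the main fit. These correlations cannot decide whether libraries of the same number share a mouse, so the unpaired fit is a choice.

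Direction turned as follows, and none of these changes was called. With scaling outside milk proteins the log2 change was -0.089 for Myh11, -0.11 for Cnn1, -0.011 for Mylk, -0.20 for Oxtr and -0.12 for Lmod1. With basal marker scaling it was -0.14 for Myh11, -0.17 for Cnn1, -0.073 for Mylk, -0.27 for Oxtr, -0.030 for Myl9 and -0.23 for Lmod1. Quantile normalization gave -0.011 for Cnn1 and -0.052 for Oxtr. Oxtr was also at -0.054 with median-of-ratios scaling, -0.063 in edgeR, -0.066 in DESeq2, -0.017, -0.055 and -0.062 without PBS replicates 1 and 4 and LPS replicate 3 (0.069 at the highest, without PBS replicate 3), and -0.12 without the 3 libraries rich in B and T cell transcripts, where Des was at 0.018. Lmod1 was at -0.013 and -0.023 without PBS replicate 1 and LPS replicate 2. The cause of these turns was not tested. A filter on a mean of at least 5 FPKM gave no value for Lmod1 and Des. Depth limits Des most, with 43 to 140 reads.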
